A study of Homo sapiens with 11 samples.

Results

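The early growth response (EGR) transcription factor genes EGR1, EGR2, EGR3 and EGR4 and the genes of their corepressors, NAB1 and NAB2, were followed in the E6-1 clone of Jurkat, an established line of human leukaemic T cells. The members were the rows carrying these symbols in both of the authors' comparison tables. All 6 were found, each in 1 row, among 44416 genes. The cells had been held for 30 min with the solvent DMSO alone, with the organochlorine insecticide dieldrin at 100 µM in DMSO, or with the phorbol ester PMA at 100 µM in DMSO, and each of these groups gave 3 poly(A)-enriched RNA libraries. The PMA dose is the one in the labels, but it is unusually high for this agent and may be a slip in the unit, so the dose behind every PMA value is in doubt. Nothing in the labels ties the libraries of a group to separate cultures, and the p-values then measure only how these libraries scatter, which may be technical. Bulk RNA cannot tell a change in the number of responding cells from a change in RNA per cell. A further pair of libraries depleted of ribosomal RNA, 1 with DMSO and 1 with dieldrin, gave lists of sites of divergent transcription. The T cell identity of the line was checked against 8 defining genes, which lay between 61.2 and 834 CPM, where CPM is a gene's share of the summed mean normalised counts. The 3 myeloid and 2 erythroid markers were all under 1 CPM. Of 3 B cell markers 1 reached 1 CPM, the highest at 34.6 CPM, and of 2 fibroblast and epithelial markers 1 did.

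EGR proteins are zinc finger transcription factors that bind GC-rich sites, and their genes are classic immediate-early genes, transcribed within minutes of a stimulus without new protein synthesis. In T cells they are switched on downstream of the antigen receptor, largely through the ERK kinase cascade acting on serum response factor (SRF) and its ETS-family partners. EGR1 takes part in early activation, EGR2 and EGR3 are known for restraining T cell responses, and EGR4 has been linked to cytokine gene control. NAB1 and NAB2 bind a short inhibitory domain of EGR1, EGR2 and EGR3, which EGR4 lacks, and repress the genes to which these factors are bound. In other cell systems NAB2 is itself an EGR target and closes a negative feedback loop.

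Promoter windows are shown first, to set side by side the letters before the starts of EGR1, EGR2, EGR4, NAB1 and NAB2. EGR1 and EGR2 passed the tests below, and NAB1 and NAB2 did not. EGR4 carried no p-value, yet its unshrunken change against DMSO was 108.5-fold with dieldrin and 28.0-fold with PMA. RefSeq (GRCh38.p14) windows of 250 bases before to 50 bases after a start were at hand for 5 of the 6 members, 9 windows in all, and EGR3 was not among them. Capitals mark the SRF box (CArG box), the cyclic AMP response element (CRE) core TGACG, and the EGR sites GCGTGGGCG and GCGGGGGCG, each on either strand.
EGR1, chr5:138465229-138465528, plus strand: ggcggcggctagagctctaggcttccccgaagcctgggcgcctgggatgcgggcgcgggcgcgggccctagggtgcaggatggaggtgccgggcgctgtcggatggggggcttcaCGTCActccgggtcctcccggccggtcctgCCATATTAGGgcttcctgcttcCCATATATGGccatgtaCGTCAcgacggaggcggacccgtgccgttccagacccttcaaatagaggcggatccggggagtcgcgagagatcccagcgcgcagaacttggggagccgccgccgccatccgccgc
EGR2, chr10:62816317-62816616, minus strand: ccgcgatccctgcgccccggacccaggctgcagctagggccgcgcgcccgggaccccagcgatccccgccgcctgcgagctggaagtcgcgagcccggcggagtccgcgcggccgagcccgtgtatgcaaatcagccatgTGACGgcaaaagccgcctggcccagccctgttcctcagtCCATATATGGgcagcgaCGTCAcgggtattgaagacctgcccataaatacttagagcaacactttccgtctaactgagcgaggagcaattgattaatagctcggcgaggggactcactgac
EGR4, chr2:73293499-73293798, minus strand: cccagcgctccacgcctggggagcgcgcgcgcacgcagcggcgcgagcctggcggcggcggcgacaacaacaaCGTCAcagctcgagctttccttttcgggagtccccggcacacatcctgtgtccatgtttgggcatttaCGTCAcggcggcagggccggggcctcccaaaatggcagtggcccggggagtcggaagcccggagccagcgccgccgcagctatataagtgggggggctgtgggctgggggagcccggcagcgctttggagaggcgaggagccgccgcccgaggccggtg
NAB1, chr2:190648645-190648944, plus strand: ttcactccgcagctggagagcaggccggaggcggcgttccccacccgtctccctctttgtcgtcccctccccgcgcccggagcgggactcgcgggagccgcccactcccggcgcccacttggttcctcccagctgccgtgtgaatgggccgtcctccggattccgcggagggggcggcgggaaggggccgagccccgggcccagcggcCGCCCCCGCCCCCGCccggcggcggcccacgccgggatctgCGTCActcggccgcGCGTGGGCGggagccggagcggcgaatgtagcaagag
NAB2, chr12:57088864-57089163, plus strand: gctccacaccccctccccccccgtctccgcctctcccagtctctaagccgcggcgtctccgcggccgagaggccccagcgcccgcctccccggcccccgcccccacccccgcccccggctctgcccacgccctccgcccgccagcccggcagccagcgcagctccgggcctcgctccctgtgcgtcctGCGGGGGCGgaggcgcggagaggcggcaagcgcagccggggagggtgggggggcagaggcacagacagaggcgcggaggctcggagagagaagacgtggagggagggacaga
The EGR1 window held 2 SRF boxes, at -105 to -96 and -83 to -74 from the start (the first base before it being -1), and the EGR2 window shown held 1, at -71 to -62. An SRF box was present in 1.29% of all 35116 windows of this length. The EGR4, NAB1 and NAB2 windows held no SRF box. The CRE core occurred 2 times in each of the EGR1, EGR2 and EGR4 windows shown, 1 time in the NAB1 window shown, and in 24.6% of all windows. An SRF box together with a CRE core, a pairing singled out after the matches were seen, was found in the EGR1 window and the EGR2 window shown, and in 0.273% of all windows. The NAB1 window shown held 1 GCGTGGGCG, present in 0.795% of all windows, and 2 overlapping copies of GCGGGGGCG, present in 5.07%. The NAB2 window held 1 GCGGGGGCG and neither an SRF box nor a CRE core. The other 2 EGR2 windows, at starts further upstream, held none of the capitalised motifs, and of the other 2 NAB1 windows 1 overlaps the window shown and holds the same EGR sites and CRE core, and 1 holds a CRE core alone. No window of the 9 held the ETS site form CCGGAA (17.2% of all windows) or the full CRE TGACGTCA (1.85%, it contains the CRE core). None held the AP-1 site TGANTCA (7.71%) or the TATA box TATAAA (11.5%). Shorter or other forms of ETS sites were not searched for, so an absence of CCGGAA is not an absence of ETS sites. The NF-kB pattern, 3 G, 5 bases of any kind and 2 C on either strand, occurred in all 9 windows and in 58.7% of all windows. Such matches describe the letters and do not show that a factor binds.

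The first question was how each EGR and NAB mRNA stood in the 3 groups. EGR1 was the most abundant EGR mRNA in each group, and all 4 EGR mRNAs stood higher with either treatment than with DMSO, whereas NAB1 and NAB2 stayed near their DMSO level. Values per library were not used here, so levels are group means of normalised counts, worked out from the authors' mean and their unshrunken changes, with no SD. EGR1 stood at 1062 normalised counts with DMSO, 41708 with dieldrin and 52196 with PMA. EGR2 stood at 32.2 with DMSO, 2774 with dieldrin and 452 with PMA. EGR3 stood at 166 with DMSO, 9692 with dieldrin and 550.3 with PMA. EGR1 was thus high with both agents, while the EGR2 and EGR3 means were much higher with dieldrin than with PMA. EGR4 stood at 16.0 with DMSO, 1738 with dieldrin and 448 with PMA. NAB1 stood at 1725, 1751 and 1814 normalised counts with DMSO, dieldrin and PMA, and NAB2 at 1071, 1100.4 and 1121. Whether the libraries of these groups overlap cannot be read from the tables. Levels of the EGR genes depend on the estimate: with the authors' shrunken changes in place of the unshrunken ones the DMSO level would be 7109 for EGR1, 386 for EGR2, 1460 for EGR3 and 338 for EGR4.

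Levels of different genes were compared per kilobase of merged exon, with lengths from GENCODE v29 (3138 bases for EGR1, 3689 for EGR2, 4855 for EGR3, 2377 for EGR4, 4887 for NAB1 and 3010 for NAB2). With DMSO, NAB2 at 356, NAB1 at 353 and EGR1 at 339 counts per kb were close together, followed by EGR3 at 34.2, EGR2 at 8.74 and EGR4 at 6.74 counts per kb. With dieldrin the order of these levels was EGR1 at 13291, EGR3 at 1996, EGR2 at 752, EGR4 at 731, NAB2 at 366 and NAB1 at 358 counts per kb. All 4 EGR mRNAs then stood above both NAB mRNAs. With PMA, EGR1 at 16633 counts per kb stood above NAB2 at 373 and NAB1 at 371, and EGR4 at 188, EGR2 at 123 and EGR3 at 113 counts per kb stood below them. Which neighbours in these orders differ beyond the spread between libraries could not be tested. The summed EGR level per kb was 0.548 times the summed NAB level with DMSO, 23.2 times with dieldrin and 22.9 times with PMA. EGR1 gave 87.2% of the EGR sum with DMSO, 79.3% with dieldrin and 97.5% with PMA, and EGR3 gave 8.81%, 11.9% and 0.664%. The calculation with shrunken changes, whose results are not means of counts, was run here too. With those changes, the summed EGR value was 3.96 times the NAB value with DMSO, 21.4 times with dieldrin and 21.5 times with PMA. EGR1, at 2265 counts per kb, then stood above both NAB mRNAs with DMSO too, and EGR3, at 379 counts per kb, stood above them with PMA, while the order with dieldrin was unaltered. The EGR1 share was then 80.5% with DMSO, 83.5% with dieldrin and 94.6% with PMA, and the EGR3 share 10.7%, 9.45% and 2.38%. The direction of both shares from DMSO to dieldrin thus turned when shrunken changes were put in. These ratios are of mRNA reads, not of protein.

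**Figure D1:**
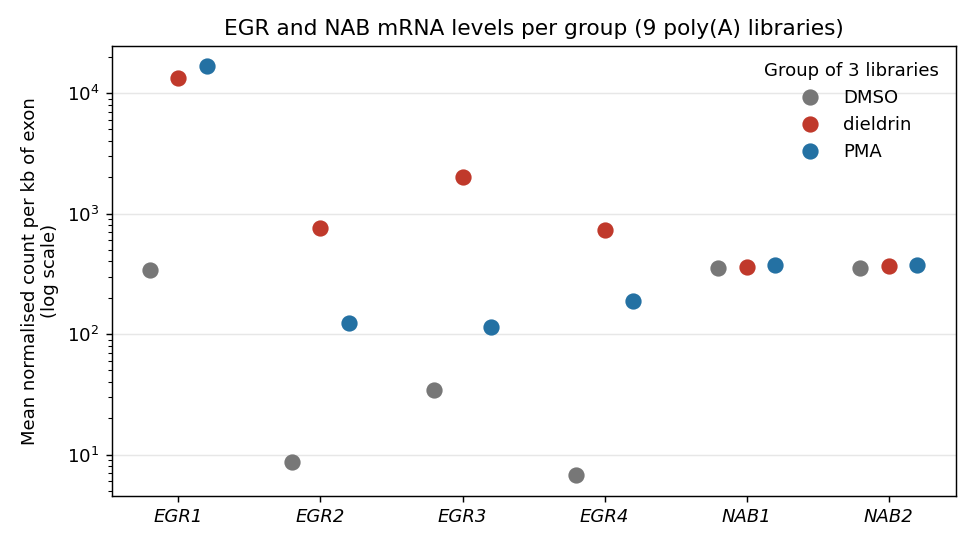
Mean normalised count per kb of merged exon (log axis) of each EGR and NAB gene in the DMSO, dieldrin and PMA groups, each point standing for 3 poly(A) libraries; no error is drawn because no values per library were used. EGR1 goes from 339 with DMSO to 13291 with dieldrin and 16633 with PMA, while the NAB points lie between 353 and 373.

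The next question was which members changed with dieldrin against DMSO. EGR1 and EGR2 rose, NAB1 and NAB2 did not pass the test, and EGR3 and EGR4 carry no p-value, so they are not counted as called. In all, 2 of the 4 members with a p-value were called higher and 0 lower, beside 1.28% of the 19280 genes adjusted in this comparison called higher and 1.02% lower. EGR1 (ENSG00000120738, hg19 chromosome 5, 137801179 to 137805004, plus strand) has in the authors' deposited table a shrunken log2 change of 2.51 (standard error 0.116, adjusted Wald p 3.54e-101). Its unshrunken fold was 39.3, with a 95% interval of 28.2 to 54.7. The intervals are approximate, since their error is the unshrunken change divided by the authors' Wald statistic, which belongs to the shrunken change. EGR2 (ENSG00000122877, hg19 chromosome 10, minus strand) has in the authors' deposited table a shrunken log2 change of 2.45 (standard error 0.112, adjusted p 1.52e-102). Its unshrunken fold was 86.0, with an interval of 57.7 to 128.2. The authors' annotation extends EGR2 over 107.9 kb, 64571756 to 64679660, whereas RefSeq gives it 7172 bases on GRCh38.p14, so some of its counted span lies outside the RefSeq gene. EGR3 (ENSG00000179388, hg19 chromosome 8, 22545172 to 22550815, minus strand) has in the authors' deposited table an unshrunken log2 change of 5.87, a shrunken one of 2.28 with a standard error of 0.107, and no p. EGR4 (ENSG00000135625, hg19 chromosome 2, 73518058 to 73520833, minus strand) has in the authors' deposited table an unshrunken log2 change of 6.76, a shrunken one of 1.87 with a standard error of 0.104, and no p. These unshrunken changes amount to 58.4-fold for EGR3 and 108.5-fold for EGR4. By unshrunken fold with dieldrin, EGR4 stood in place 3, EGR2 in place 5, EGR3 in place 6 and EGR1 in place 8 of the 12853 genes of at least 1 CPM.

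The authors' tables carry DESeq2's column names. In that program a p-value missing beside a computed statistic is known to mark a gene in which the count of at least 1 library lies far from the fitted value. Whether that holds for EGR3 and EGR4 was not tested.

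NAB1 (ENSG00000138386, hg19 chromosome 2, 191511472 to 191557492, plus strand) did not pass with dieldrin, the authors' deposited table giving it 1.00 as adjusted p. Its unshrunken fold was 1.01, with a 95% interval of 0.873 to 1.18. NAB2 (ENSG00000166886, hg19 chromosome 12, 57482677 to 57489259, plus strand) likewise did not pass, at 1.00 in the authors' deposited table. Its fold was 1.03, with an interval of 0.921 to 1.15, and the folds of EGR1 and EGR2 lie far above that interval. The last 69 bases of NAB2 overlap STAT6 on the opposite strand, the EGR3 gene overlaps an antisense transcript by 3153 bases, and NAB1 overlaps AC006460.2 by 15823 bases. Whether the authors' counting used strand is not given in the sources used here. STAT6 had a mean of 57.1 CPM and an unshrunken log2 change of -0.01 with dieldrin. The transcript antisense to EGR3 had a mean of 1.64 normalised counts, against 3469 for EGR3. At this very low count, the antisense transcript had an unshrunken log2 change of 5.38 with dieldrin and no adjusted p. AC006460.2 had a mean of 2.63 normalised counts, a log2 change of 0.01 with dieldrin and no adjusted p.

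The same question was asked of PMA, which activates protein kinase C directly. EGR1 and EGR2 rose again, and again the NAB genes did not pass. Of the 4 members with a p-value, 2 were called higher and 0 lower, beside 0.528% of the 17612 genes adjusted called higher and 0.0908% lower. EGR1 has in the authors' deposited table a shrunken log2 change of 2.73 (standard error 0.116, adjusted p 4.14e-119). Its unshrunken fold of 49.1, with an interval of 35.6 to 67.9, was in place 1 of the 12853 genes of at least 1 CPM. EGR2 has in the authors' deposited table a shrunken log2 change of 0.99 (standard error 0.112, adjusted p 8.69e-16). Its fold was 14.02, with an interval of 7.80 to 25.2. EGR3 and EGR4 have in the authors' deposited table unshrunken log2 changes of 1.73 and 4.81 with PMA and no p, which amount to 3.32-fold and 28.0-fold. By unshrunken fold with PMA, EGR4 stood in place 3, EGR2 in place 4 and EGR3 in place 19 of the 12853 genes. For NAB1 and NAB2 with PMA the authors' deposited table again lists 1.00 after adjustment. The NAB1 fold was 1.05, with an interval of 0.905 to 1.22, and the NAB2 fold 1.05, with an interval of 0.939 to 1.17.

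**Figure D2:**
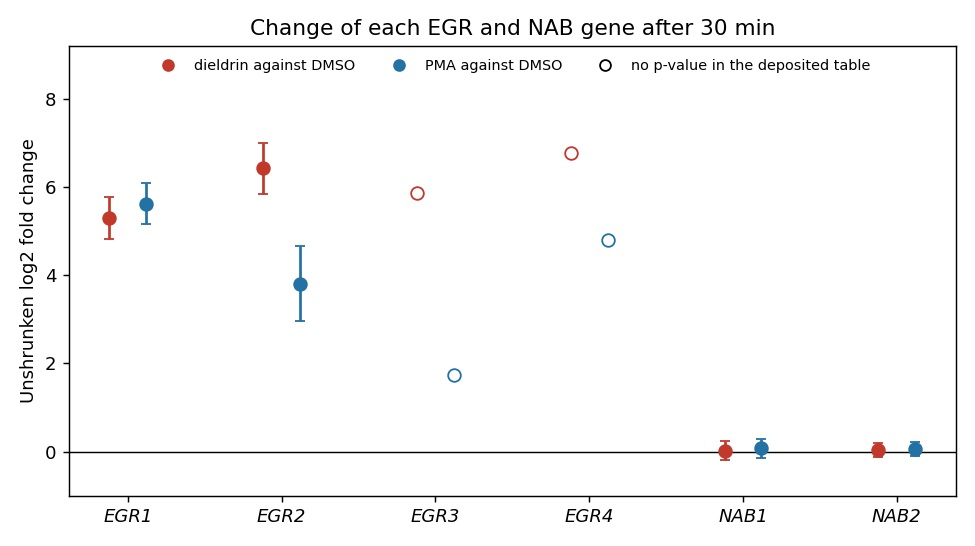
Unshrunken log2 fold change against DMSO of each member with dieldrin and with PMA; bars are 95% intervals from the error implied by the Wald statistic, and open circles are values with no p in the authors' tables, drawn without an interval. The EGR1 intervals of the 2 agents overlap, those of EGR2 do not, and the NAB intervals include 0.

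Dieldrin and PMA were then set against each other. EGR2 was higher with dieldrin than with PMA, whereas EGR1, NAB1 and NAB2 showed no difference past the test. Both comparisons share the DMSO libraries, and their covariance was left out of the error. For EGR2 the difference of the shrunken log2 changes, dieldrin minus PMA, was 1.46 (standard error 0.158), and a normal two-sided test with Benjamini-Hochberg adjustment over 17612 genes gave an adjusted p of 6.26e-17. Without shrinkage EGR2 was 6.14-fold higher with dieldrin than with PMA, with a 95% interval of 3.02 to 12.5 and an adjusted p of 0.000221. It was the 1 member called among the 4 tested, beside 0.494% of all genes called in either direction and 0.261% called higher with dieldrin than with PMA. For EGR1 the difference of the shrunken changes was -0.22 (standard error 0.164, adjusted p 1.00). The unshrunken EGR1 ratio of dieldrin to PMA was 0.799, with an interval of 0.503 to 1.27. For NAB1 the ratio was 0.965 (interval 0.779 to 1.19) and for NAB2 0.981 (interval 0.841 to 1.15). EGR3 and EGR4 were left out of this test, which was run over genes with an adjusted p in both tables. Their levels were 17.6-fold and 3.88-fold higher with dieldrin than with PMA by the unshrunken changes, and 3.86-fold and 1.96-fold higher by the shrunken ones. The shrunken ratio for EGR2 was 2.75-fold. Among the 51 genes of at least 1 CPM called higher with both agents, 25 had the larger unshrunken change with dieldrin, and the median of the difference was -0.03 on the log2 scale.

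**Figure D3:**
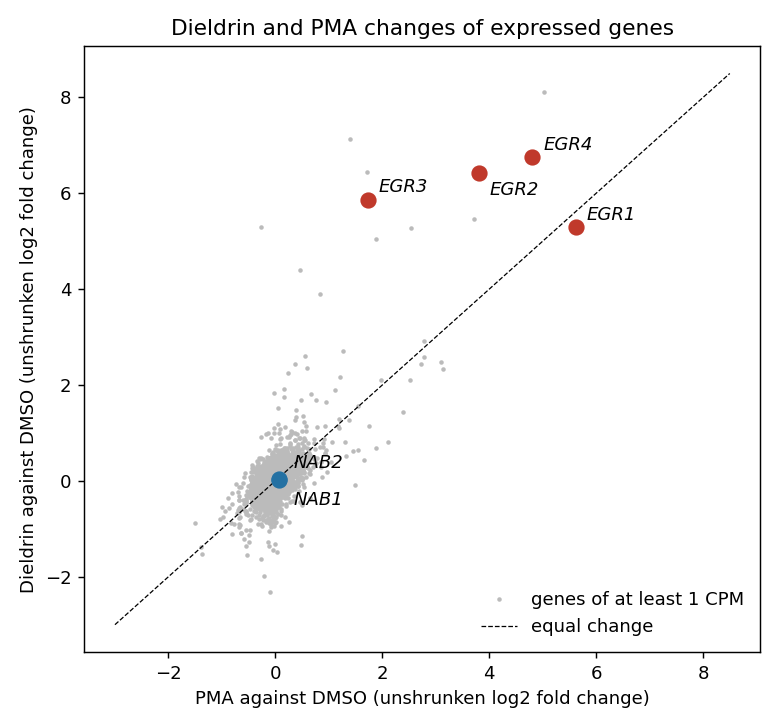
Unshrunken log2 fold changes of the 12853 genes of at least 1 CPM (grey), PMA against DMSO on the x axis and dieldrin against DMSO on the y axis, with the EGR genes in red, the NAB genes in blue and the line of equal change dashed. EGR2, EGR3 and EGR4 lie above the line, EGR1 lies near it at 5.62 and 5.29, and the NAB genes lie in the mass of genes near 0.

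The genes whose pair of unshrunken changes lay nearest to that of each EGR gene were sought among genes of at least 1 CPM adjusted in both tables, by the distance in log2 units. Genes without an adjusted p, EGR3, EGR4 and TNF among them, were thereby no candidates. The pattern rests on 3 group means per gene and is a description. Nearest to EGR1 were CD69 at a distance of 1.92, EGR2 at 2.13 and FOS at 2.87, so that no candidate came within 1 log2 unit of EGR1. Nearest to EGR2 were CD69 at 0.976, JUN at 1.71 and FOS at 2.07. Nearest to EGR3 were the orphan nuclear receptor genes NR4A1 at 0.830 and NR4A3 at 1.93, with JUN between them at 1.00. Nearest to EGR4 were EGR2 at 1.05, FOS at 1.36 and EGR1 at 1.68. Of these 12 neighbours 1 was named again when the shrunken changes were used. With the genes lacking an adjusted p let in, a choice made after seeing the data, 9 of the 12 were named again, EGR4 came nearest to EGR1 at 1.68 and TNF nearest to EGR3 at 0.571. For NAB1 and NAB2 the nearest genes (ACSL4, SRPRB and SNRPB2, and PLEKHA7, KCNK1 and CEBPZ) mark no particular pattern, since 4583 and 4645 genes lay within 0.1 log2 units of them.

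Genes around the EGR and NAB proteins were counted in lists by role. The upstream list of SRF, its ETS partners and its coactivators had 0 of 6 genes called with dieldrin by the authors' Wald test, beside 2.30% of all genes called in either direction, and 0 of 6 with PMA, beside 0.619%. Before adjustment, 1 and 0 had p under 0.05, beside 8.36% of all genes adjusted with dieldrin and 3.73% with PMA. SRF itself is listed in the authors' deposited table with an unshrunken log2 change of 0.23 with dieldrin, its adjusted p being 0.364. The list's median log2 change was -0.01 with dieldrin and 0.05 with PMA, beside 0.0019 and -0.0044 over all genes tested. Of 13 ERK cascade genes 1 fell with dieldrin, RPS6KA4, which encodes the chromatin kinase MSK2, and 0 were called with PMA. Over all genes 1.02% were called lower with dieldrin. Before adjustment, 3 of the 13 had p under 0.05 and were lower with dieldrin, beside 3.82% of all genes, and 0 had p under 0.05 with PMA. RPS6KA4 has in the authors' deposited table a shrunken log2 change of -0.58 with dieldrin (standard error 0.0987, adjusted p 9.20e-07) and of -0.01 with PMA (adjusted p 1.00). The ERK list's median was -0.04 with dieldrin and -0.02 with PMA.

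Of 15 genes of the NuRD complex, whose CHD4 subunit NAB2 is known to recruit, and of the coactivators CREBBP and EP300, 0 were called with either agent. The shares over all genes were 2.30% with dieldrin and 0.619% with PMA, so counts of 0 in this list and in the next ones are near the background. Before adjustment, p was under 0.05 for 1 with dieldrin, CREBBP (adjusted p 0.301 in the authors' deposited table), and for 0 with PMA. Their median was -0.02 with both agents. Of 28 genes reported elsewhere as EGR targets, 22 were adjusted with dieldrin and 20 with PMA, and 0 were called in either. At an unadjusted p under 0.05, 1 was higher and 1 lower with dieldrin and 1 was higher with PMA. The smallest p was that of CDKN1B, the gene of the cell cycle inhibitor p27, at 1.27-fold with dieldrin, where the authors' deposited table lists 0.0809 after adjustment. With PMA, CDKN1B was at 1.20-fold. Dividing every statistic by a common spread, that of all adjusted genes in the same comparison, brought CDKN1B past the threshold with both agents. TNF, a target gene with no p, was at 86.7-fold with dieldrin and 3.26-fold with PMA in the authors' deposited table, and was chosen after its values were seen. The target list's median was 0.04 with dieldrin and 0.01 with PMA. Of 8 other zinc finger factors of GC-rich sites, 0 were called with either agent, with 1 at an unadjusted p under 0.05 with dieldrin, SP3 at 1.08-fold, and 0 with PMA. Their median was 0.04 with dieldrin and 0.03 with PMA. With every statistic divided by that common spread, the called genes of all these lists were RPS6KA4 with dieldrin and CDKN1B with both agents. The shares over all genes given above are those before this division. No share after it is given here, so these calls cannot be set against a background.

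The site lists place divergent transcription at the member genes. Each list comes from 1 ribosomal RNA-depleted library and gives positions only, so there is no test, and the depth of either library is unknown. The DMSO list holds 113689 sites over 38.5 Mb and the dieldrin list 118474 over 40.7 Mb, a ratio of 1.04. Sites were counted within 10 kb of a member's listed start or in its body. EGR1 had 4 sites with DMSO and 8 with dieldrin, EGR2 had 3 and 7, EGR3 had 4 and 11 and EGR4 had 3 and 11. NAB1 had 6 and 8 sites, and NAB2 had 9 and 18, although its mRNA showed no change past the test. Over all 6 members there were 29 sites with DMSO and 63 with dieldrin. Of these 63, 40 overlapped no DMSO site near the same member by 1 bp or more. The share without overlap over all dieldrin sites was not worked out, so 40 of 63 cannot be read as particular to these members. All 6 members had more sites in the dieldrin list, as did 42.6% of the 12853 genes of at least 1 CPM, whose median was 7.0 sites in each list. A gain of at least 4 sites, reached by all members but NAB1, was seen for 13.3% of these genes, and a gain of at least 7, reached by EGR3, EGR4 and NAB2, for 4.57%. Both cutoffs equal gains of members, 4 for EGR1 and EGR2 and 7 for EGR3, so these shares only describe. Of the 54 genes of at least 1 CPM called at least 2-fold higher with dieldrin, 51.9% had more sites in that list. A gain of at least 4 was seen for 16.7% of these 54 genes and a gain of at least 7 for 3.70%. Within 1 kb of the listed starts the members had 8 and 9 sites, against 29 and 63 in the wider count.

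Placed by the listed starts, the added sites lay differently at the EGR genes. At EGR1 all 8 dieldrin sites lay upstream of the start, with centres from -5672 to -228 bases, and the gene body held 0. The DMSO list had 3 sites before the EGR1 start, of which the farthest was centred at -1611, and a site of 9 bases inside the gene. At EGR3 and EGR4 the dieldrin sites ran through the gene body. They covered 71.8% of the EGR3 body, against 3.70% with DMSO, and 66.6% of the EGR4 body, against 13.4%. A rise of at least 50 percentage points in covered body was seen for 59 genes of at least 1 CPM, or 0.459%, EGR3 and EGR4 among them. Such a rise was not limited to genes whose mRNA rose. It was seen for 51 of the genes not called with dieldrin, or 0.410%. Of the 54 genes called at least 2-fold higher with dieldrin, 3 had it, or 5.56%. At EGR2 the 7 dieldrin sites and the 3 DMSO sites all lay at the 3′ end of the long listed span, between 64569975 and 64576733 on hg19 chromosome 10. None lay within 1 kb of the listed start. That start belongs to the 107.9 kb span, and the 7172-base RefSeq gene was not placed within it. Where these sites lie relative to the RefSeq start and body was therefore not worked out, and EGR2 cannot be set against EGR3 and EGR4 here. The most 3′ dieldrin site there was 2555 bases wide, where the widest DMSO site had 359 bases. At NAB2 the added dieldrin sites lay on both sides of the start and around the 3′ end, where the gene meets STAT6, and the body covered rose from 14.8% to 24.1%. At NAB1 the dieldrin list had 0 sites within 1 kb of the listed start and the DMSO list 1. How far transcription level, depth and site calling each bear on these counts was not tested.

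**Figure D4:**
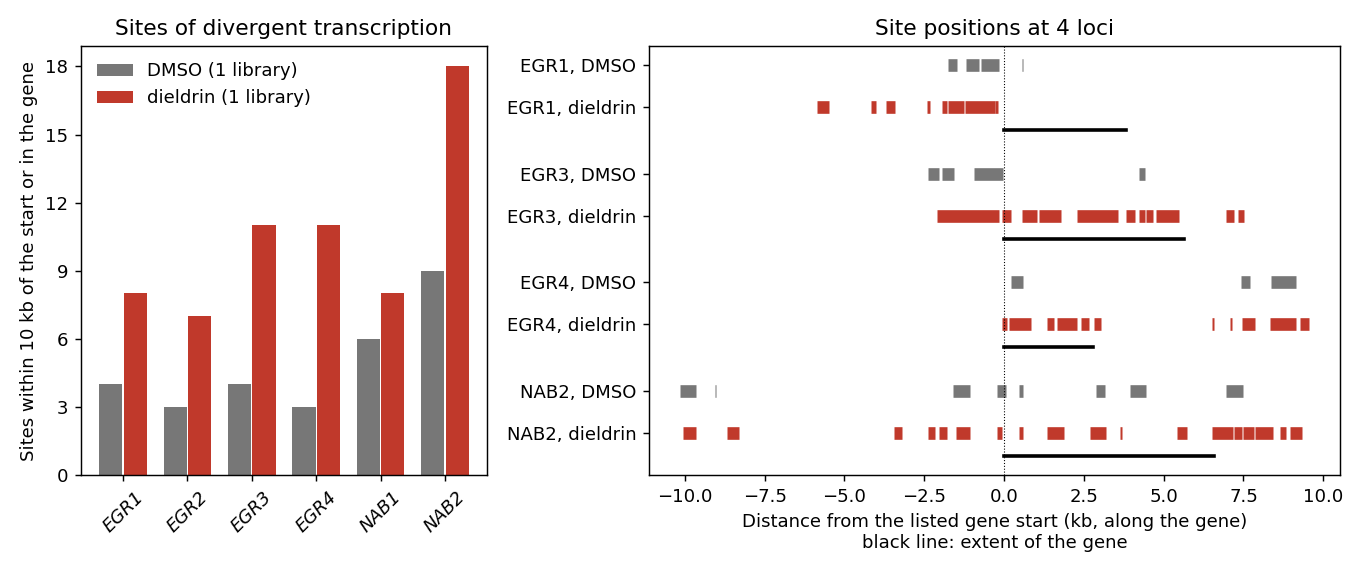
Left, number of sites of divergent transcription within 10 kb of the listed start or in the body of each member in the DMSO and the dieldrin list, 1 library each. Right, the extent of each site by its distance from the listed start in kb, along the gene, at EGR1, EGR3, EGR4 and NAB2, with the gene drawn as a black line: the dieldrin sites lie upstream of EGR1 and run through EGR3 and EGR4.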

How the data were processed

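RNA of Jurkat cells was sequenced from 9 poly(A)-enriched libraries, 3 per group, and from 2 ribosomal RNA-depleted libraries. STAR, edgeR and hg19 appear in the submitters' processing notes, without settings. The counting tool, the site caller and the annotation release were not given in the sources used here. For each treatment the deposited table holds, per the file headers, the mean of normalised counts (signal). It also holds log2 changes with and without shrinkage, per the file headers. A standard error and the Wald statistic (score) are deposited beside each change, and so are a p-value and its adjusted form. The authors' column names are those of DESeq2. The mean is identical in both tables, and the statistic is the shrunken change over its error for all 44416 genes (tolerance 1e-06).

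No values per library were used, so depth is unknown. Group means assume that the deposited mean covers the 9 libraries equally. The error of an unshrunken change is approximated by that change divided by the Wald statistic. CPM is a mean over the sum of all means, and 1 CPM is 83.7 normalised counts. The agents were compared by differences of shrunken changes over the root of summed squared errors, over genes adjusted in both tables. The arithmetic of this step was tested on simulated unshrunken changes, which does not cover shrinkage. Genes are called at an adjusted p under 0.05. All 6 members are described, with up to 3 called genes per list (otherwise that of smallest p) and the 3 nearest genes by pattern. The members and lists were chosen with earlier results of these data known. Scripts ran in Python 3.11.15, with scipy 1.17.1 for tests, pandas 2.3.3 and numpy 2.4.6 for tables, and matplotlib 3.10.9 for plots. Alternatives were stricter thresholds, other adjustments, errors, windows and overlaps, shrunken in place of unshrunken changes, and expressed genes as the motif background.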

Additional observations from a re-analysis of the deposited data

How the results depend on the processing

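The number of members called, 2 with dieldrin, 2 with PMA and 1 between the agents, was the same under every threshold, adjustment, filter and error tried, and the adjusted p of EGR2 between the agents ran from 1.30e-35 to 0.000221. Putting shrunken changes into the calculation of group levels moved the values of the EGR genes, but the results are not means of counts. With shrunken changes the value with DMSO was 7109 for EGR1. For EGR2 it was 386 with DMSO, 2107 with dieldrin and 765 with PMA. For EGR3 it was 1460 with DMSO, 7106 with dieldrin and 1842 with PMA, and for EGR4 338 with DMSO and 1233 with dieldrin. The EGR to NAB ratio per kb with DMSO then went from 0.548 to 3.96. The EGR1 share of the EGR sum was lower with dieldrin than with DMSO with unshrunken changes (87.2% to 79.3%) and was higher with dieldrin with shrunken ones (80.5% to 83.5%). Shrinkage pulls each change toward 0 by construction. Within 1 kb of the starts the members had 8 DMSO and 9 dieldrin sites, and within 50 kb or in the body 110 and 155. Of the 12 genes nearest to the EGR genes by pattern, 1 was named again with shrunken changes and 9 with genes lacking an adjusted p among the candidates. With every statistic divided by the common spread of its comparison, 1 EGR target gene was called with dieldrin and 1 with PMA, with no share over all genes beside them. The cause was not tested. Among promoters of genes of at least 1 CPM, 9 of the 10 motif shares moved beyond their 95% counting interval, the SRF box share to 1.02%. No paired analysis was possible because no values per library were used, and leaving out each replicate was not run for the same reason.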

Other observations

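EGR3 and EGR4 belonged to a small group of expressed genes without a p-value. Of the 12853 genes of at least 1 CPM, 14 carried none in either table, or 0.109%. Of these 14, 5 had an unshrunken change above 2-fold with dieldrin, namely FOSB, EGR4, TNF, EGR3 and CYR61, all immediate-early genes or early response genes. In the authors' deposited table FOSB stood at 141.2-fold with dieldrin and 2.62-fold with PMA, and CYR61 at 15.0-fold and 1.79-fold. The other 9 of the 14 had changes under 2-fold with dieldrin. Of the 6 genes with the largest unshrunken changes with dieldrin at 1 CPM or more, 4 had no p. Counts of called genes therefore leave out some of the largest changes in these tables, and a list of called genes would hold EGR1 and EGR2 but neither EGR3 nor EGR4.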
